A study of Mus musculus with 30 samples.

Results

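The Serpina3 cluster is a run of closely related serine protease inhibitor genes on mouse chromosome 12. The 6 genes described here are Serpina3f, Serpina3g, Serpina3h, Serpina3i, Serpina3m and Serpina3n, chosen by name and matched by Ensembl identifier, out of 49315 genes counted. The choice was made with earlier results of these data known. Reads were found on 4 of the 6, and the same 4 passed the minimum of 10 reads summed over all libraries that left 21138 genes for testing. Serpina3f held 3788 reads over the 24 libraries and Serpina3g 3804, while Serpina3n held 106 and Serpina3i 25. Serpina3h and Serpina3m had 0 reads in every library.

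The measurements are bulk RNA sequencing counts from 2 mouse tumor cell lines grown in culture. B16F10 is a melanoma line. The pancreatic ductal adenocarcinoma (PDAC) line 6694c2 came from a female mouse whose alleles included a heterozygous floxed p53, a floxed YFP reporter and Pdx-cre, which acts in the pancreatic lineage. Each line received vehicle, 100 ng/mL IFNγ, 1000 U/mL IFNβ or 225 μg/mL STING agonist for 24 h, with 3 libraries in each of the 8 groups. The labels do not say whether the 3 libraries of a group came from separate cultures, so the p-values measure the spread between these libraries, which may be technical.

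Serpins bait their target protease with an exposed loop. When the protease cuts this loop, the serpin changes shape and traps the enzyme in a covalent complex. Humans have a single SERPINA3 gene, which encodes the acute-phase protein alpha-1-antichymotrypsin, whereas mice carry a cluster of copies that differ in the bait loop. Serpina3g, also called Spi2A, blocks lysosomal cathepsins in the cytosol and is known as an interferon and NF-κB target in leukocytes. Serpina3n, an acute-phase gene of liver and reactive astrocytes, is a known inhibitor of granzyme B. IFNγ acts mainly through the gamma-activated site (GAS), with the core TTCNNNGAA, while type I interferons such as IFNβ act mainly through the interferon-stimulated response element (ISRE), searched here as GAAA, any pair of bases and GAAA again.

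On GRCm38 the 6 genes lie on the plus strand of chromosome 12 and span 199.786 kb, within 14 annotated Serpina3 genes and pseudogenes spread over 301.606 kb. Serpina3f (ENSMUSG00000066363) runs from 104214544 to 104221129 and Serpina3g (ENSMUSG00000041481) from 104236245 to 104241939, so the starts of these neighbors are 21.701 kb apart. Serpina3h (ENSMUSG00000041449, 104247905 to 104253669) is annotated as a transcribed unprocessed pseudogene, and the other 5 members are annotated as protein coding. Next come Serpina3i (ENSMUSG00000079014, 104263122 to 104269372), Serpina3m (ENSMUSG00000079012, 104338486 to 104394257) and Serpina3n (ENSMUSG00000021091, 104406729 to 104414329).

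The stretch just upstream of the members was searched for motifs, among them the GAS and the ISRE. RefSeq promoters (GRCm38.p6) were on hand for 4 of the 6 members, Serpina3f, Serpina3g, Serpina3i and Serpina3n. The 250 bases before the first listed RefSeq start of each gene are shown 5′ to 3′ on the plus strand. The 9-base block that aligns with the GAS core of Serpina3g is in capitals.
Serpina3f, chr12:104214294-104214543: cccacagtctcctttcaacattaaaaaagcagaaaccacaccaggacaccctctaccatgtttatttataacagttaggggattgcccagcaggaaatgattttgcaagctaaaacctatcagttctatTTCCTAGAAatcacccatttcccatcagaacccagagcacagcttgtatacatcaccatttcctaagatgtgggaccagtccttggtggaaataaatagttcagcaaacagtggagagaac
Serpina3g, chr12:104235897-104236146: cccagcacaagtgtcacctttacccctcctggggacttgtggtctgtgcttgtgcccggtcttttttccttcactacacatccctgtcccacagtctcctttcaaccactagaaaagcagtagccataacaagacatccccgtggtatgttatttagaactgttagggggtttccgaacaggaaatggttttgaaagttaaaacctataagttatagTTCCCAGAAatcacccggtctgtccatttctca
Serpina3i, chr12:104262872-104263121: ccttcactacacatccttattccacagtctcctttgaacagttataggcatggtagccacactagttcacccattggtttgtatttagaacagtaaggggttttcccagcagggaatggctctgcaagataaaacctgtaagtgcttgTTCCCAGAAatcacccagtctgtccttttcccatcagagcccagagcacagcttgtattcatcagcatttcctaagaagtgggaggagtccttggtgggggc
Serpina3n, chr12:104406458-104406707: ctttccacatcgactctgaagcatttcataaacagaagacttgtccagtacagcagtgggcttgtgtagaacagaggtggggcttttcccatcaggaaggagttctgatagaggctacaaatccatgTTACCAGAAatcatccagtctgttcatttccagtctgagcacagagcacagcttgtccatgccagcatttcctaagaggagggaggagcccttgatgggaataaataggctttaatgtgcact

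Searched on both strands, the core TTCNNNGAA occurred once in the window of Serpina3f, once in that of Serpina3g and once in that of Serpina3i. Its first base lay 121, 33 and 102 bases before the RefSeq start, respectively. For a second RefSeq start of Serpina3f, a match lay 210 bases before it. The Serpina3g window ends short of the gene start given above, so its distance depends on the start used. Counting positions from the first base of the block in Serpina3g, Serpina3f differed by C5T, which leaves the core intact, and Serpina3n differed by C3A, which breaks it. No ISRE match was found in any of the 4 windows. A κB match was found in the windows of Serpina3g and Serpina3i, apart from the GAS block. Among 32851 promoter windows of this length, 7.02% held the GAS core, 2.98% the ISRE and 7.25% the κB motif. The 4 windows were 71.4% to 84.8% identical in pairwise alignment. A match describes letters in the window and was not tested as a binding site. Whether these motifs play a part in the responses below was not tested.

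IFNγ raised Serpina3f and Serpina3g in 6694c2 PDAC cells from a few reads per library to 882 reads or more. With vehicle, Serpina3f had 3, 6 and 1 reads, or 0.175, 0.335 and 0.0610 CPM, the depth-scaled count used here on TMM-normalized library sizes. With IFNγ it had 982, 904 and 1582 reads, or 54.6, 55.4 and 53.8 CPM. The groups did not overlap, and the IFNγ libraries lay within 2 CPM of each other. Mean levels of Serpina3f were 54.6 ± 0.814 CPM with IFNγ and 0.190 ± 0.138 CPM with vehicle (SD, n = 3 each), a 287-fold ratio of means. The log2 fold change was 8.11 (95% interval 7.67 to 8.55, adjusted p = 1.34e-30 by edgeR's quasi-likelihood F test). With 1 library left out at a time it ranged from 7.72 (without vehicle replicate 3) to 8.79 (without vehicle replicate 2).

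Serpina3g, the cathepsin inhibitor, moved in the same way in 6694c2 cells. With vehicle it had 11, 3 and 3 reads, or 0.642, 0.167 and 0.183 CPM. With IFNγ it had 1065, 882 and 1628 reads, or 59.2, 54.1 and 55.4 CPM, again without overlap between the groups. Means of Serpina3g were 56.2 ± 2.65 CPM with IFNγ and 0.331 ± 0.270 CPM with vehicle (SD, n = 3 each), a 170-fold ratio of means. Its log2 fold change was 7.40 (95% interval 7.01 to 7.79, adjusted p = 5.34e-31, edgeR) and 8.30 without vehicle replicate 1, the vehicle library with the most reads. The lowest value with a library left out was 7.07, without vehicle replicate 2. In this comparison 3 of the 4 members tested passed an adjusted p of 0.05, all of them higher (Serpina3f, Serpina3g and Serpina3i). Over all genes tested, 7.89% were called higher. Serpina3i passed the minimum of 10 reads only through its 23 reads in this IFNγ group, so its call here is not independent of that filter.

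In B16F10 melanoma cells IFNγ raised Serpina3f but left Serpina3g at its vehicle level within error. With vehicle, Serpina3f had 5, 2 and 6 reads, or 0.239, 0.0802 and 0.235 CPM. With IFNγ the libraries held 125, 59 and 59 reads, or 4.58, 2.77 and 2.60 CPM. All 3 treated libraries of Serpina3f stood above all 3 vehicle libraries, and replicate 1 was the highest. The mean was 3.31 ± 1.10 CPM against 0.185 ± 0.0905 CPM with vehicle (SD, n = 3 each), a 17.9-fold ratio of means. Its log2 fold change was 4.15 (95% interval 3.35 to 4.95, adjusted p = 3.45e-20, edgeR).

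For Serpina3g in B16F10 cells, the vehicle libraries held 6, 7 and 21 reads and the IFNγ libraries 12, 6 and 9. The groups overlapped, at 0.463 ± 0.310 CPM with vehicle and 0.372 ± 0.0817 CPM with IFNγ (SD, n = 3 each). The log2 fold change of Serpina3g was -0.32 (95% interval -1.35 to 0.70, adjusted p = 0.767, edgeR). Without vehicle replicate 3, which alone had more than 7 vehicle reads, the value was 0.40 (adjusted p = 0.774, edgeR). Called members in this line with IFNγ were Serpina3f and Serpina3n, 2 of the 4 tested and both higher, against 12% of all genes tested called higher.

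**Figure D1:**
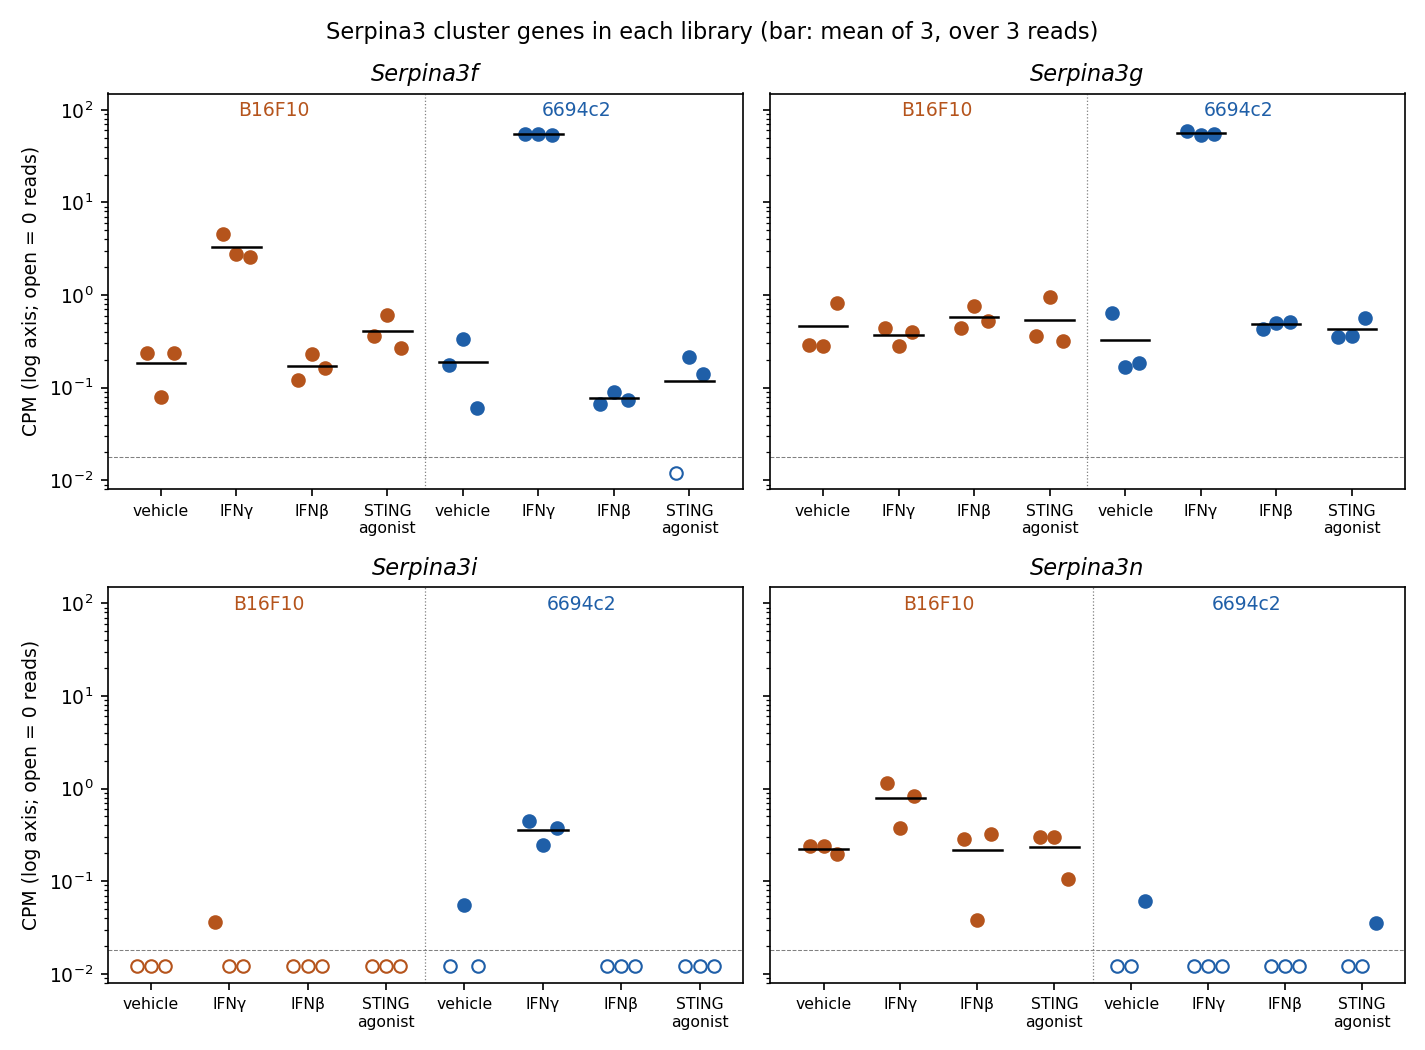
Level of the 4 detected Serpina3 genes in each of the 24 libraries, in CPM on a log axis, with B16F10 libraries on the left of each panel and 6694c2 libraries on the right. Each point is a library, open points below the dashed line are libraries with 0 reads, and bars are means of groups with more than 3 reads. The 3 IFNγ libraries of 6694c2 sit between 53.8 and 59.2 CPM for Serpina3f and Serpina3g, above every other library.

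The response to IFNγ differed between the lines for both genes. For Serpina3f the log2 fold change was larger in 6694c2 than in B16F10 cells by 3.92 (95% interval 2.36 to 5.49, adjusted p = 0.000384, edgeR, interaction over all 24 libraries). For Serpina3g the difference was 7.71 (95% interval 6.47 to 8.96, adjusted p = 1.67e-12, edgeR). These 2 of the 4 members tested were called as more strongly raised in 6694c2, against 4.52% of all genes tested. The Serpina3f difference ranged from 3.53 without 6694c2 vehicle replicate 3 to 4.60 without 6694c2 vehicle replicate 2. The Serpina3g difference ranged from 7.03 without B16F10 vehicle replicate 3 to 8.61 without 6694c2 vehicle replicate 1. With vehicle alone, neither gene was called different between the lines. The log2 difference of 6694c2 from B16F10 was 0.09 for Serpina3f (95% interval -1.31 to 1.49, adjusted p = 0.932, edgeR) and -0.52 for Serpina3g (95% interval -1.52 to 0.49, adjusted p = 0.389, edgeR). Single vehicle libraries moved the Serpina3g value to 0.17 (without B16F10 replicate 3) or -1.42 (without 6694c2 replicate 1), and that of Serpina3f to -0.59 (without 6694c2 replicate 2).

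Under IFNγ the mean level of Serpina3f was 16.5-fold and that of Serpina3g 151-fold as high in 6694c2 as in B16F10 cells. The lines therefore also differed in the balance of these neighbors. Per kilobase of exon, Serpina3f stood at 23.8 ± 0.355 and Serpina3g at 26.7 ± 1.26 CPM per kb in 6694c2 cells with IFNγ (SD, n = 3 each). In B16F10 cells with IFNγ they stood at 1.45 ± 0.480 and 0.177 ± 0.0388 CPM per kb (SD, n = 3 each). The ratio of Serpina3f to Serpina3g per kilobase was 0.848, 0.942 and 0.893 in the 6694c2 IFNγ libraries and 9.58, 9.04 and 6.03 in the B16F10 IFNγ libraries. With vehicle the ratio was 0.43 ± 0.291 in B16F10 and 0.799 ± 0.901 in 6694c2 cells (SD, n = 3 each), on a few reads per gene. Serpina3f was thus the more abundant of the pair in B16F10 cells with IFNγ, and the genes were near parity in 6694c2 cells.

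**Figure D2:**
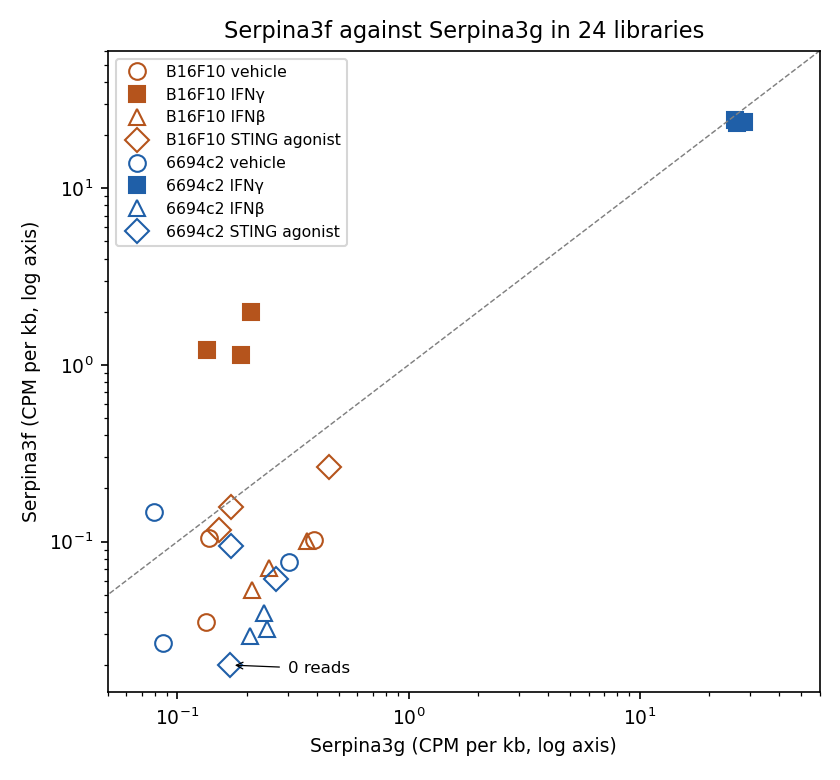
Serpina3f (vertical) against Serpina3g (horizontal) in CPM per kilobase of exon, both on log axes, with a point for each of the 24 libraries and a dashed line of equal level. The 6694c2 IFNγ libraries lie next to the line at the upper right, with ratios of 0.848 to 0.942, whereas the B16F10 IFNγ libraries lie above it, with ratios of 6.03 to 9.58. The 6694c2 STING agonist library marked as 0 reads had no Serpina3f read and is drawn at the bottom of the plot.

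Reads from 1 line in libraries of the other were measured as a check on low levels. The genes used were 198 at 50 CPM or more in 6694c2 vehicle libraries and under 2% of that in B16F10 vehicle libraries. Their median level in the B16F10 IFNγ libraries was 0.178% to 0.379% of that in 6694c2 vehicle libraries. Serpina3f in the B16F10 IFNγ libraries was at 8.39%, 5.07% and 4.76% of its 6694c2 level under IFNγ. Serpina3g was at 0.782%, 0.501% and 0.705%. Serpina3f was well above the median of the 6694c2-specific genes in each of these libraries. Serpina3g was above it by a smaller margin, at a level it also had in B16F10 cells with vehicle. The 6694c2-specific genes were chosen for low levels in B16F10 vehicle libraries, so a low median was built in. Carry-over of reads between libraries was not tested.

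Serpina3n, the granzyme B inhibitor, was read in every B16F10 library and had at most 1 read in any 6694c2 library. In B16F10 cells it had 5, 6 and 5 reads with vehicle, or 0.239, 0.241 and 0.196 CPM, and 31, 8 and 19 reads with IFNγ, or 1.14, 0.375 and 0.836 CPM. The IFNγ libraries all lay above the vehicle libraries and spread over a wide range. Mean levels of Serpina3n were 0.782 ± 0.383 and 0.225 ± 0.0256 CPM (SD, n = 3 each), a 3.48-fold ratio of means. The log2 fold change was 1.79 (95% interval 0.65 to 2.93, adjusted p = 0.0121, edgeR). This call was lost without IFNγ replicate 1 (1.42, adjusted p = 0.157, edgeR) and, narrowly, without vehicle replicate 3 (1.70, adjusted p = 0.0507, edgeR).

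In 6694c2 cells Serpina3n had 1 read in the vehicle libraries, 1 with STING agonist and 0 with IFNγ or IFNβ. Between the vehicle groups, 16 reads in B16F10 stood against 1 in 6694c2, a ratio of 11.5 after scaling for depth (95% interval from counting error 1.79 to 484). Serpina3n was called lower in 6694c2 vehicle cells, with a log2 difference of -3.21 (adjusted p = 0.018, edgeR). It was the only 1 of the 4 members tested that was called between the vehicle groups, against 29.3% of all genes tested called lower. The call was lost when 6694c2 vehicle replicate 1 was left out (-2.73, adjusted p = 0.0702, edgeR) and when replicate 2 was (-2.71, adjusted p = 0.0742, edgeR), and without replicate 3 no 6694c2 vehicle read remained. Under IFNγ, Serpina3n had 58 reads in B16F10 against 0 in 6694c2. Its B16F10 level was 17.3-fold that of a floor of 3 reads over the 6694c2 group, without an allowance for counting error.

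Serpina3i was read almost only in 6694c2 cells with IFNγ, where the 3 libraries had 8, 4 and 11 reads, or 0.445, 0.245 and 0.374 CPM. Elsewhere a single read fell in a 6694c2 vehicle library and another in a B16F10 IFNγ library. The mean of Serpina3i in 6694c2 cells with IFNγ was 0.355 ± 0.101 CPM (SD, n = 3), and 23 reads against 1 with vehicle gave a ratio of 18.6 (95% interval from counting error 3.02 to 765). It was called higher (log2 fold change 3.88, adjusted p = 0.0368, edgeR), but 7 of 10 alternatives lost the call. The adjusted p by edgeR was 0.115, 0.0535 and 0.12 when IFNγ replicates 1, 2 and 3 were left out in turn, and 0.114 and 0.136 when vehicle replicates 1 and 3 were. Without vehicle replicate 2, which held the only vehicle read, the fitted value was 6.09 (adjusted p = 0.043, edgeR).

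Serpina3i is a close relative of the 2 strongly raised genes, and its reads moved with theirs. In the 6694c2 IFNγ libraries it took 0.389% (exact 95% interval 0.168 to 0.766), 0.223% (0.0609 to 0.571) and 0.342% (0.171 to 0.610) of the reads on Serpina3f, Serpina3g and Serpina3i together. Whether reads of Serpina3f or Serpina3g were counted on Serpina3i was not tested. In GENCODE M21 transcripts, 15.4% of the 50-base windows of Serpina3i occur unchanged in another gene, against 10.7% for Serpina3f, 16% for Serpina3g and 6.9% for Serpina3n. With 100-base windows these shares were 2.33%, 3.58%, 4.64% and 0.204%, and with 150-base windows 0% for all 4. Serpina3f and Serpina3g transcripts were 89.3% identical, and the members ranged from 79.5% (Serpina3i and Serpina3m) to 92.3% (Serpina3h and Serpina3i). The read length and the handling of reads that map to several genes are not given in the sources used here, so counts of all members carry this uncertainty.

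Serpina3h and Serpina3m were not detected in either line with any treatment. A floor of 3 reads corresponds to between 0.0998 and 0.184 CPM in a single library and 0.00542 CPM over all 24 libraries, for counting error only. Serpina3h has the largest share of 50-base windows found in another gene, at 24.4%, and Serpina3m follows at 19.1%. Serpina3m also shares 60 exon bases, or 3.49% of its exon length, with Serpina3k, and the counting of reads on shared bases is uncertain.

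**Figure D3:**
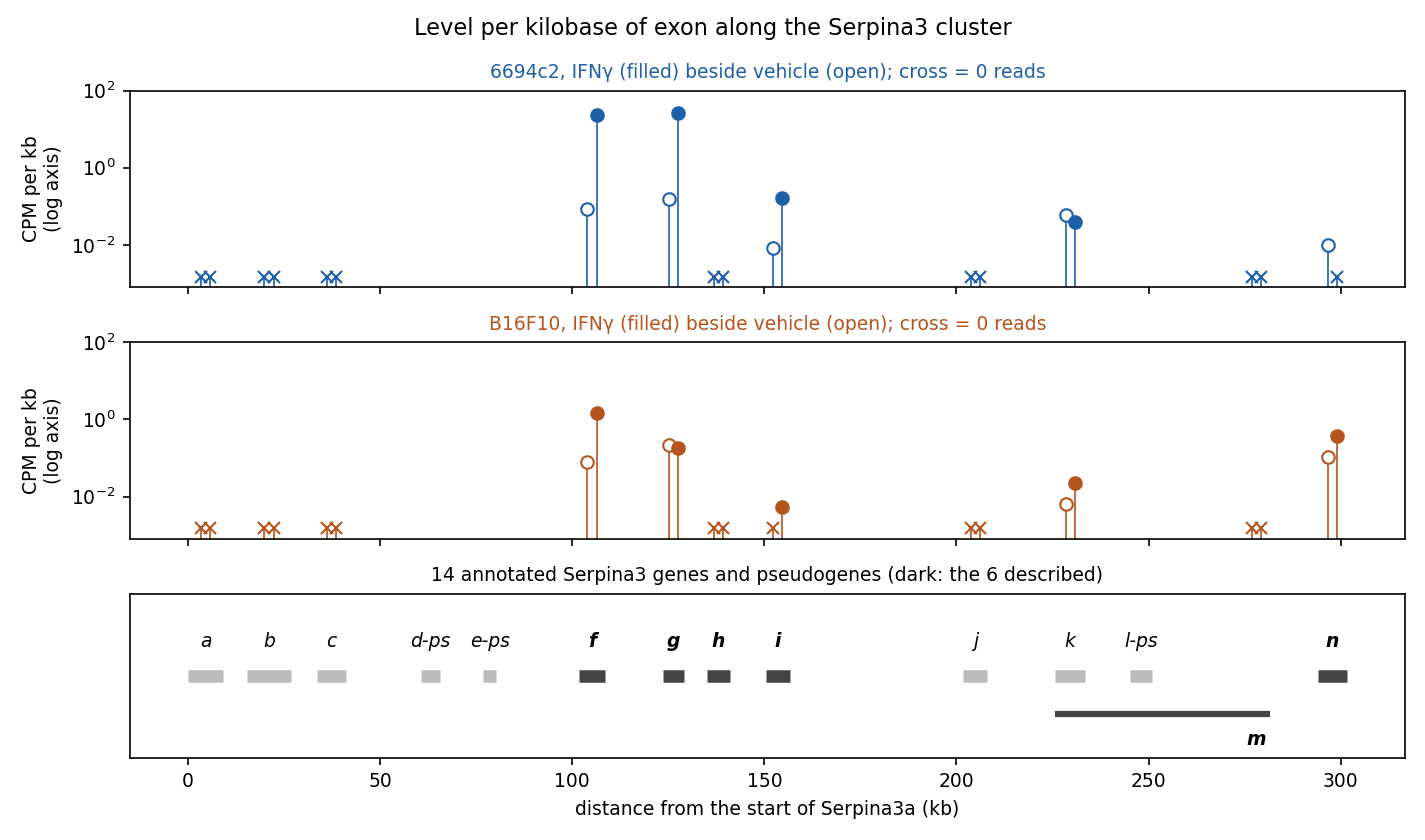
Mean level in CPM per kilobase of exon (log axis) along the cluster, with distance from the start of Serpina3a in kb on the horizontal axis, for 6694c2 (top) and B16F10 (middle), above the 14 annotated genes and pseudogenes (bottom). Open points are vehicle, filled points IFNγ and crosses 0 reads, each the mean of 3 libraries, the mark of Serpina3m stands near its downstream end, and the pseudogenes d-ps, e-ps and l-ps carry no point. In 6694c2 the neighbors Serpina3f and Serpina3g stand at 23.8 and 26.7 CPM per kb with IFNγ, while the pseudogene Serpina3h beside them has 0 reads.

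IFNβ did not give the response that IFNγ gave. In 6694c2 cells with IFNβ, Serpina3f had 2 reads in each library and Serpina3g 13, 11 and 14, and both overlapped their vehicle libraries. Means were 0.0769 ± 0.0123 CPM for Serpina3f and 0.482 ± 0.0438 CPM for Serpina3g (SD, n = 3 each). Log2 fold changes against vehicle were -1.27 for Serpina3f (95% interval -2.70 to 0.16, adjusted p = 0.256, edgeR) and 0.56 for Serpina3g (95% interval -0.26 to 1.39, adjusted p = 0.423, edgeR). None of the 4 members tested was called, against 18.2% of all genes tested. Serpina3i and Serpina3n held 1 read each with vehicle and 0 with IFNβ, too few for a call. Serpina3g was called higher without vehicle replicate 1 (1.46, adjusted p = 0.046, edgeR), the library that held 11 of the 17 vehicle reads. The Serpina3f value was -0.59 without vehicle replicate 2.

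Set directly against IFNγ in 6694c2 cells, Serpina3f was lower with IFNβ, with a log2 difference of -9.38 (95% interval -9.83 to -8.92, adjusted p = 7.63e-32, edgeR), and so was Serpina3g at -6.84 (95% interval -7.18 to -6.50, adjusted p = 1.37e-31, edgeR). As ratios of means, IFNγ gave 710-fold the IFNβ level of Serpina3f and 117-fold that of Serpina3g. Serpina3i had 0 reads under IFNβ and was called higher with IFNγ (adjusted p = 0.00295, edgeR). Its IFNγ level was 9.54-fold that of a floor of 3 reads over the IFNβ group, without an allowance for counting error. Thus 3 of the 4 members tested were lower with IFNβ than with IFNγ, against 6.57% of all genes tested called lower. Serpina3i counts among them only because its IFNγ reads took it past the read minimum.

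In B16F10 cells with IFNβ, Serpina3f had 3, 6 and 4 reads, Serpina3g 11, 20 and 13 and Serpina3n 7, 1 and 8. All 3 genes overlapped their vehicle libraries. Log2 fold changes were -0.08 for Serpina3f (95% interval -1.29 to 1.14), 0.31 for Serpina3g (-0.66 to 1.27) and -0.07 for Serpina3n (-1.38 to 1.25). None of the 4 members tested was called, against 24% of all genes tested, and Serpina3i had 0 reads in both groups. Without vehicle replicate 3 the Serpina3g value was 1.03 (adjusted p = 0.278, edgeR). Against IFNγ, Serpina3f was lower with IFNβ at a log2 difference of -4.22 (adjusted p = 1.19e-20, edgeR), as was Serpina3n at -1.86 (adjusted p = 0.0133, edgeR). That made 2 of the 4 members tested, against 7.85% of all genes tested called lower. The Serpina3n call was lost without IFNβ replicate 2 (-1.37, adjusted p = 0.145, edgeR), which held 1 read, and without IFNγ replicate 1 (-1.49, adjusted p = 0.185, edgeR). Serpina3g was at 0.579 ± 0.168 CPM with IFNβ and 0.372 ± 0.0817 CPM with IFNγ (SD, n = 3 each, log2 difference 0.63, adjusted p = 0.511, edgeR).

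STING agonist moved no member past the threshold in either line. In B16F10 cells Serpina3f had 6, 14 and 5 reads, or 0.359, 0.607 and 0.265 CPM. Every one of these libraries was above the highest vehicle library, at 0.239 CPM. The log2 fold change was 1.18 (95% interval 0.11 to 2.25, unadjusted p = 0.0312 and adjusted p = 0.314, edgeR). The 6694c2-specific genes were also higher in these libraries, at a median of 0.828% to 1.03% of their 6694c2 vehicle level. In B16F10 vehicle libraries the median was 0.177% to 0.230%. The part of this in the Serpina3f value was not tested.

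Serpina3g in B16F10 cells had 6, 22 and 6 reads with STING agonist (0.543 ± 0.355 CPM, SD, n = 3, log2 fold change 0.25, 95% interval -0.75 to 1.24), and Serpina3n had 5, 7 and 2 reads (0.236 ± 0.113 CPM, log2 fold change 0.07, 95% interval -1.28 to 1.42). None of the 4 members tested was called in B16F10 cells, against 3.46% of all genes tested, and Serpina3i had 0 reads in both groups. The Serpina3g value was 0.96 without vehicle replicate 3 and -0.48 without STING agonist replicate 2. In 6694c2 cells Serpina3f had 0, 6 and 4 reads and Serpina3g 9, 10 and 16, with log2 fold changes of -0.64 (95% interval -1.92 to 0.65) and 0.37 (-0.47 to 1.22). Leaving out vehicle replicate 1 moved Serpina3g to 1.27 (adjusted p = 0.466, edgeR), and leaving out vehicle replicate 2 moved Serpina3f to 0.047. There too none of the 4 members tested was called, against 0.36% of all genes tested. Serpina3i held 0 reads and Serpina3n 1 read with STING agonist, and each held 1 with vehicle, too few for a call. The responses to IFNβ and to STING agonist were not called different between the lines for any of the 4 members tested, against 12.1% and 2.12% of all genes tested. Serpina3i in both lines and Serpina3n in 6694c2 cells held too few reads for such a call, so these tests bear on Serpina3f and Serpina3g only. By edgeR at an unadjusted p under 0.05, 1 member (Serpina3f) passed in the B16F10 STING agonist comparison and 0 in the other comparisons of IFNβ or STING agonist with vehicle or between lines, and DESeq2 called 0 in each.

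**Figure D4:**
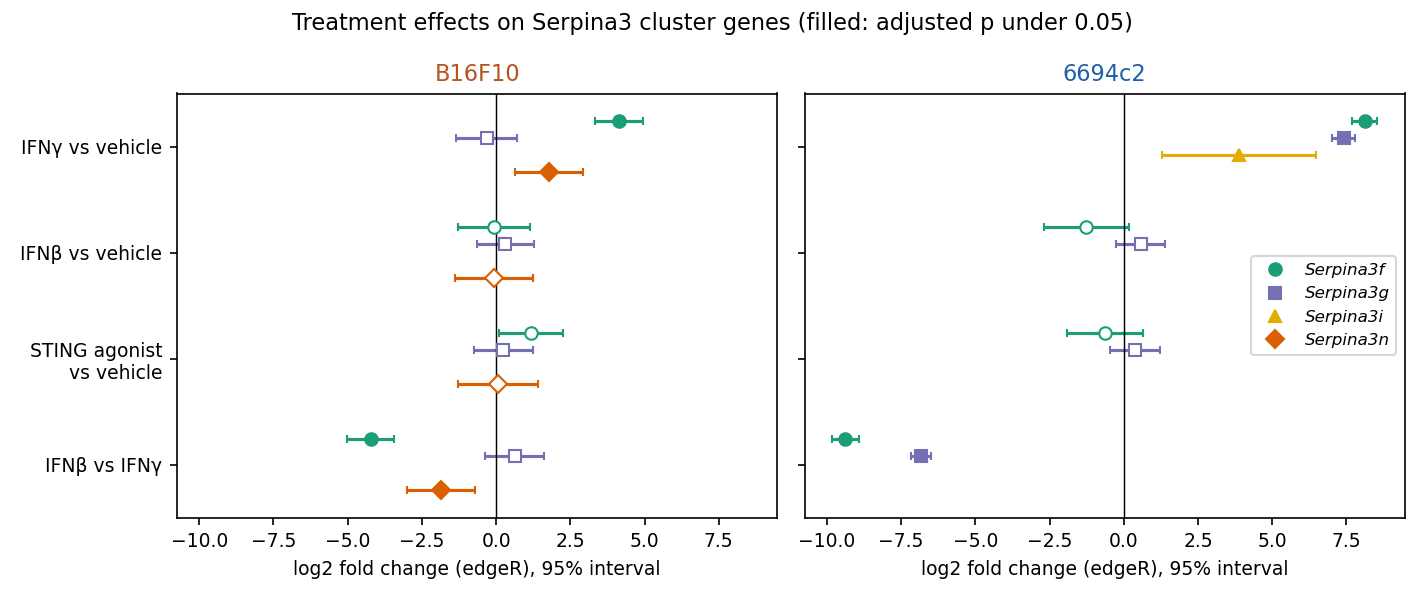
Log2 fold changes of the Serpina3 genes from edgeR (horizontal axis) with 95% intervals, for B16F10 (left) and 6694c2 (right) and the 4 comparisons within each line. Filled symbols have an adjusted p under 0.05, and folds are left out where both groups held 3 reads or fewer and for Serpina3i between IFNβ and IFNγ, where the IFNβ libraries had 0 reads. Serpina3f is filled for IFNγ in both lines (4.15 and 8.11) and Serpina3g in 6694c2 alone (7.40).

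Ordered by mean level, Serpina3f was highest in 6694c2 cells with IFNγ, then in B16F10 cells with IFNγ, then in B16F10 cells with STING agonist, and the libraries of these 3 groups did not overlap. The remaining 5 groups, from 0.190 CPM down to 0.0769 CPM, each overlapped the group above. For Serpina3g the 6694c2 IFNγ group stood alone, and the other 7 groups ran from 0.579 to 0.331 CPM with each overlapping its neighbor. Serpina3n was highest in B16F10 cells with IFNγ, without overlap with the next group, and the other B16F10 groups lay between 0.215 and 0.236 CPM. Outside the IFNγ groups Serpina3f and Serpina3g were thus read in both lines at well under 1 CPM, on 0 to 22 reads per library. Whether any of these reads came from the 6694c2 IFNγ libraries was not tested.

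Genes whose pattern was most like that of Serpina3f were ranked by Pearson's r of log2(CPM + 1) over the 24 libraries, among 13352 genes with a mean of 1 CPM or more in some group. The 5 nearest were Fas (r = 0.979), Ubd (0.966), Gm16685 (0.962), Acod1 (0.959) and Ggct (0.958). Fas, like Serpina3f, was higher with IFNγ in both lines, at means of 10.3 CPM in 6694c2 and 1.10 CPM in B16F10 cells against 0.174 and 0.281 CPM with vehicle. Nearest to Serpina3g were Ido1 (r = 0.99), 2210407C18Rik (0.988), Ubd (0.986), Irf8 (0.981) and Fst (0.97). Ido1, like Serpina3g, was read mainly in 6694c2 cells with IFNγ, at a mean of 6.67 CPM against 0 to 0.248 CPM in the other 7 groups. These correlations are descriptions, since the 24 points share 3 libraries far above the rest and the genes share library depth.

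The other 5 counted genes of the cluster, Serpina3a, Serpina3b, Serpina3c, Serpina3j and Serpina3k, did not follow Serpina3f and Serpina3g. Of these, 4 had no read in any library. Serpina3k had 43 reads in all and was called only in B16F10 cells with IFNβ, at 0.225 ± 0.182 CPM against 0.0134 ± 0.0232 CPM with vehicle (SD, n = 3 each, adjusted p = 0.0431, edgeR). In 6694c2 cells its log2 fold change with IFNγ was -0.37 (adjusted p = 0.949, edgeR). Among 14 other clade A serpins, of which 8 were tested, 1 was called higher with IFNγ in 6694c2 cells and none in B16F10 cells with any treatment. That gene was Serpina10, an inhibitor of coagulation proteases, at 0.334 ± 0.232 CPM against 0 reads with vehicle (adjusted p = 0.0253, edgeR). Its fitted log2 fold change was 0 with IFNβ and STING agonist in 6694c2 cells and with every treatment in B16F10 cells. Serpina10 thus passed the read minimum mainly or only through this IFNγ group, so its call is not independent of that filter. Over all genes tested, 7.89% were called higher with IFNγ in 6694c2 cells, a share from which 1 of 8 cannot be told apart. In B16F10 cells the shares were 12% called higher with IFNγ, and 24% and 3.46% called in either direction with IFNβ and STING agonist.

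Serpins of other clades were called in both directions. Of 17 such genes, 5 were higher and 4 lower with IFNγ in 6694c2 cells (median log2 fold change -0.29, against 0 over all genes tested), and 6 were higher and 1 lower with IFNβ. In B16F10 cells 5 were higher and 1 lower with IFNγ, and 4 were higher and 1 lower with IFNβ. Over all genes tested, 7.89% in 6694c2 and 12% in B16F10 cells were called higher with IFNγ. No share called lower is given here, so the lower counts with IFNγ have no background beside them. With IFNβ 18.2% and 24% were called in either direction, so the B16F10 count with IFNβ lay near the background. With STING agonist 2 were higher and 1 lower in B16F10 cells, and 0 were called in 6694c2 cells. Over all genes tested, 3.46% and 0.36% were called in either direction. Serping1, the C1 inhibitor of complement, was called higher with IFNγ at low levels in both lines, at 0.260 ± 0.103 against 0.0134 ± 0.0232 CPM in B16F10 cells (SD, n = 3 each, adjusted p = 0.0275, edgeR) and 0.235 ± 0.251 CPM against 0 reads in 6694c2 cells (adjusted p = 0.0436, edgeR). Serpinb9, an intracellular inhibitor of granzyme B, rose with IFNβ in 6694c2 cells by a log2 fold change of 3.26, at 186 ± 9.61 CPM against 19.8 ± 1.03 CPM with vehicle (SD, n = 3 each, adjusted p = 2.15e-32, edgeR). In B16F10 cells it rose by 1.56 with IFNβ, at 18.5 ± 2.26 against 6.32 ± 0.755 CPM (adjusted p = 7.5e-38, edgeR). IFNγ raised it more in that line, by 2.94 (adjusted p = 4.49e-100, edgeR). The granzyme B inhibitor of the Serpina3 cluster, Serpina3n, had 0 reads in the 6694c2 IFNβ libraries and overlapped vehicle in the B16F10 IFNβ libraries.

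Proteases that these serpins are known to bind moved little. Of 10 listed, 7 were tested. With IFNβ 3 were higher and 0 lower in B16F10 cells and 1 higher and 1 lower in 6694c2 cells. Over all genes tested, 24% and 18.2% were called in either direction. With STING agonist 2 were higher in B16F10 cells and 0 were called in 6694c2 cells, against 3.46% and 0.36% of all genes tested. In B16F10 cells 3 were higher with IFNγ, against 12% of all genes tested. Among them Ctsh, a lysosomal cathepsin, had a log2 fold change of 0.66 (44.6 ± 2.11 against 28.2 ± 1.05 CPM, SD, n = 3 each, adjusted p = 8.35e-15, edgeR). In 6694c2 cells, where Serpina3g was raised, 0 were higher with IFNγ, against 7.89% of all genes tested called higher, and 2 were lower. The share of all genes called lower is not given here, so the lower count has no background beside it. The lower ones were Ctsh, which fell by 0.53 on the log2 scale (adjusted p = 7.33e-07, edgeR), and Ctsl, cathepsin L, which fell by 0.35 (adjusted p = 0.000192, edgeR).

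Transcription factors and feedback genes of interferon, interleukin 6 and NF-κB signaling were mostly called higher with both interferons in both lines. Of 13 listed, 11 were higher and 0 lower with IFNγ in 6694c2 cells, and 10 were higher and 0 lower with IFNβ (median log2 fold changes 2.18 and 0.94, against 0 over all genes tested). In B16F10 cells the counts were 8 higher and 2 lower with IFNγ and 7 higher and 3 lower with IFNβ. With STING agonist 4 were higher and 1 lower in B16F10 cells and 0 were called in 6694c2 cells. Over all genes tested, 7.89% in 6694c2 and 12% in B16F10 cells were called higher with IFNγ. Shares called in either direction were 18.2% and 24% with IFNβ and 0.36% and 3.46% with STING agonist. In 6694c2 cells Serpina3f and Serpina3g were raised with IFNγ and not called with IFNβ. In B16F10 cells IFNγ raised Irf1, an interferon-induced transcription factor, by 5.69 on the log2 scale (637 ± 17.3 against 12.3 ± 1.98 CPM, SD, n = 3 each, adjusted p = 1.66e-244, edgeR), in libraries where Serpina3g was not called. Of 18 acute-phase genes, 16 were tested, with 3 higher and 1 lower with IFNγ in 6694c2 cells and 1 higher and 0 lower in B16F10 cells. With IFNβ 1 acute-phase gene was higher in each line and 0 lower, and with STING agonist 0 were called in B16F10 cells and 1, lower, in 6694c2 cells. Of these acute-phase counts, those with IFNγ in B16F10 cells and with IFNβ in both lines did not exceed the shares over all genes.

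Library depth ranged from 15543131 to 32266795 reads on genes. Summed melanocyte markers (12 genes) were between 15700 and 19900 CPM in B16F10 libraries and between 20.8 and 141 CPM in 6694c2 libraries, and summed ductal epithelial markers (12 genes) between 12900 and 15200 CPM in 6694c2 and between 16.3 and 138 CPM in B16F10 libraries. Summed leukocyte markers (8 genes), a check because Serpina3g is known in leukocytes, reached 12.4 CPM at most, and were at 3.68 to 5.68 CPM in the 6694c2 IFNγ libraries, where Cd3e and Itgam were at 0 reads, against 5.47 to 6.30 CPM with vehicle.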

How the data were processed

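Paired-end bulk RNA sequencing was performed on both lines. The authors trimmed adaptors with cutadapt 1.14, aligned with STAR 2.7.9a and counted with Rsubread. The deposited values are raw counts of reads per gene, without normalization, 1 table per library. The genome build used for alignment, the annotation, strandedness and the handling of multi-mapping reads are not given in the sources used here (mm10 is listed in the submitters' processing notes without a role). Gene positions in the tables equal those of GENCODE M21 (GRCm38) for 91.4% of 49056 shared genes. The single-cell samples were not analysed here.

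Counts were analysed in edgeR 4.0.16 (R 4.3.3) with TMM scaling and a minimum of 10 reads over the 24 libraries. Treatments were compared within each line over its 12 libraries, and lines over all 24, by quasi-likelihood F tests with Benjamini-Hochberg correction across 21138 genes at 0.05. Standard errors were taken from the fold change and F statistic. No fold is given where both groups held 3 reads or fewer. Ratios involving groups with few reads carry exact 95% intervals, for counting error only, where both groups had reads. Where a group had no reads, a floor of 3 reads stood in for it, without an interval. CPM per kb uses the exon length in the tables. The fit was tested on simulated counts. Alternatives were DESeq2 1.42.0, a replicate block, RLE size factors, no low-count filter, the filterByExpr minimum, another choice of libraries for the fit and omission of each library in turn. The 6 members, the gene lists and the tests were chosen with earlier results of these data known. Named genes are the members, the 5 genes most correlated with each member reaching a mean of 1 CPM, and the 2 largest changes among called genes of each list with IFNγ or IFNβ, of which some are given. Promoters come from RefSeq and were aligned with Biopython 1.88. An allele of the PDAC line and a gene of the signaling list are not reported here by name.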

Additional observations from a re-analysis of the deposited data

Results flagged for a closer look

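The IFNγ responses of Serpina3f and Serpina3g differed between the cell lines by a test of the difference itself. The log2 fold change of Serpina3f was larger in 6694c2 than in B16F10 cells by 3.92 (standard error 0.774, edgeR's quasi-likelihood F test, adjusted p = 0.000384), with all 3 libraries higher than every vehicle library in both lines. For Serpina3g it was larger by 7.71 (standard error 0.616, adjusted p = 1.67e-12, edgeR), with all 3 libraries higher in 6694c2 cells and overlapping groups in B16F10 cells. Both differences stayed past the threshold under all 18 alternatives, with adjusted p between 6.44e-08 and 0.0109 for Serpina3f and between 1.32e-41 and 5.72e-08 for Serpina3g. The cause was not tested.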

How the results depend on the processing

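Of 31 fold changes of single members, 16 kept their direction and side of the threshold under every alternative, among them Serpina3f with IFNγ in both lines, Serpina3g with IFNγ in 6694c2 cells and both differences between the lines. The filterByExpr minimum removed Serpina3n and Serpina3i, which left 1 member called for IFNγ in B16F10 cells, 1 for IFNβ against IFNγ in B16F10 cells and 0 between the vehicle groups. With all 24 libraries in the fit, 1 member, Serpina3f, was called for IFNβ against IFNγ in B16F10 cells, and Serpina3n was not (-1.86, adjusted p = 0.0594, edgeR). DESeq2 gave no adjusted p for Serpina3i. In 6694c2 cells the called members with IFNγ fell from 3 to 2 under the filterByExpr minimum, DESeq2 and all 24 libraries (Serpina3i, adjusted p = 0.0513, edgeR) and in 5 of 6 fits that left out 1 library, and those for IFNβ against IFNγ fell from 3 to 2 under the filterByExpr minimum and DESeq2. Leaving out 1 library at a time gave 1 to 2 called members for IFNγ in B16F10, 0 to 1 for IFNβ in 6694c2, 1 to 2 for IFNβ against IFNγ in B16F10 and 0 to 1 between the vehicle groups, as named with the results. Directions turned in these fits for uncalled values alone. The ranges were -0.59 to 0.40 for Serpina3g with IFNγ in B16F10, -0.44 to 0.17 for Serpina3f and -0.48 to 0.43 for Serpina3n with IFNβ in B16F10, -0.48 to 0.96 for Serpina3g and -0.18 to 0.41 for Serpina3n with STING agonist in B16F10, and -1.32 to 0.047 for Serpina3f with STING agonist in 6694c2. Between the vehicle groups they were -0.59 to 0.48 for Serpina3f and -1.42 to 0.17 for Serpina3g, and for the differences between lines of Serpina3g -0.44 to 1.14 with IFNβ and -0.63 to 0.99 with STING agonist. Replicate numbers did not pair the samples: deviations of same-numbered libraries correlated between -0.276 and 0.243, and with a replicate block 1 call was lost (Serpina3i with IFNγ in 6694c2, log2 fold change 3.88, adjusted p = 0.0771, edgeR), which left 2 called members there. Depth limits every value outside the IFNγ groups, where a member held 22 reads per library at most. It also limits values within them, among them Serpina3i in 6694c2 (4 to 11 reads per library). In B16F10 the same holds for Serpina3g (6 to 12) and Serpina3n (8 to 31).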
